A study of Mus musculus with 11 samples.

Results

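Notch signalling passes between touching cells: a ligand of the Delta or Jagged family on one cell binds a Notch receptor on its neighbour, the receptor is cut by ADAM and gamma-secretase proteases, and its intracellular part enters the nucleus, where it joins the DNA-binding protein RBPJ to switch on HES and HEY repressor genes. In mouse skin the pathway is known for promoting the departure of keratinocytes from the basal layer and for its part in hair follicle maintenance. The 10 genes described here are 3 receptors (Notch1, Notch2, Notch3), 3 ligands (Dll1, Jag1, Jag2), the nuclear effector Rbpj and 3 target genes of the HES and HEY family (Hes1, Hey1, Heyl). They were taken by symbol from the 55536 genes counted, all 10 were found, and all 10 passed the filter on low counts.

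Bulk RNA-seq covered 11 libraries of FACS-sorted epidermal cells from back skin of male CD4Cre R26-tdT mice on a C57Bl6/N background. In these mice Cre is driven by the CD4 promoter, so that cells with a history of CD4 promoter activity, and their descendants, carry the red reporter tdT; all 4 groups come from this strain and carry both alleles. All cells were labelled CD49f+CD34+ and were then divided by Sca-1 and tdT into Sca-1+ tdT+ cells (3 libraries), Sca-1+ tdT- cells (2 libraries), Sca-1neg tdT+ cells (3 libraries) and Sca-1neg tdT- cells (3 libraries). CD49f is the integrin of basal keratinocytes encoded by Itga6, CD34 marks bulge stem cells of the follicle, and Sca-1 is the product of Ly6a. Cells of 2 mice were pooled for each library; the animals were 29 weeks old for replicate 1 and 32 weeks old for the other replicates. The labels do not say whether libraries of different groups share mice, so p-values measure the spread between these libraries.

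Total gene counts ran from 17409131 to 46542177 per library. The tdT tracer stood between 133 and 307 CPM in 5 of the 6 libraries labelled tdT+ and between 2.54 and 4.89 CPM in the 5 tdT- libraries, but at 2.05 CPM in 1 library, which is therefore called the library labelled Sca-1neg tdT+ replicate 2. Transcripts of 10 liver genes made up 1.35% to 2.45% of the counts in 3 Sca-1neg libraries, namely tdT+ replicate 1, tdT- replicate 2 and the library with the low tracer, and at most 0.00965% in the other 8. Transcripts of the sort markers were checked against the gates. The range of Ly6a was 153 to 294 CPM over the 5 Sca-1+ libraries, against 2.46 to 59.2 CPM over the 6 Sca-1neg libraries. Cd34 was at 22.3 to 35.7 CPM in Sca-1+ tdT+ cells and at 320 to 383 CPM in Sca-1+ tdT- cells, against 468 to 1130 CPM in the Sca-1neg libraries, so its transcript was low in the Sca-1+ tdT+ libraries despite their CD34+ label. In bulk RNA, fewer cells of a type and less RNA per cell cannot be told apart.

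The ligands Jag2 and Jag1 had the highest means of the 10 transcripts when CPM, the counts relative to the TMM-scaled total of their library, were divided by exon length. Jag2 averaged 66.5 CPM per kilobase over the 11 libraries and Jag1 44.9, followed by Hes1 with 29.1, Notch1 with 21.9 and Dll1 with 13.5. Notch3 averaged 8.77 and Notch2 8.63 CPM per kilobase. This is an order of means only, since from Jag2 down to Notch2 each gene overlapped the next in its range over libraries (Jag2 47.2 to 98.2 and Jag1 25.4 to 72.2, for example). Rbpj averaged 3.32 CPM per kilobase (2.12 to 4.59), below the lowest value of Notch2, 5.49. It overlapped Notch3, whose lowest value was 2.83, and Dll1, whose lowest value was 4.15. The exon length of Rbpj, the union of all its annotated exons, was 12750 bases. The targets Hey1 and Heyl averaged 0.756 and 0.255 CPM per kilobase, overlapped each other, and lay below Rbpj in range. Among the 3 targets, Hes1 thus had the highest level per length.

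**Figure D1:**
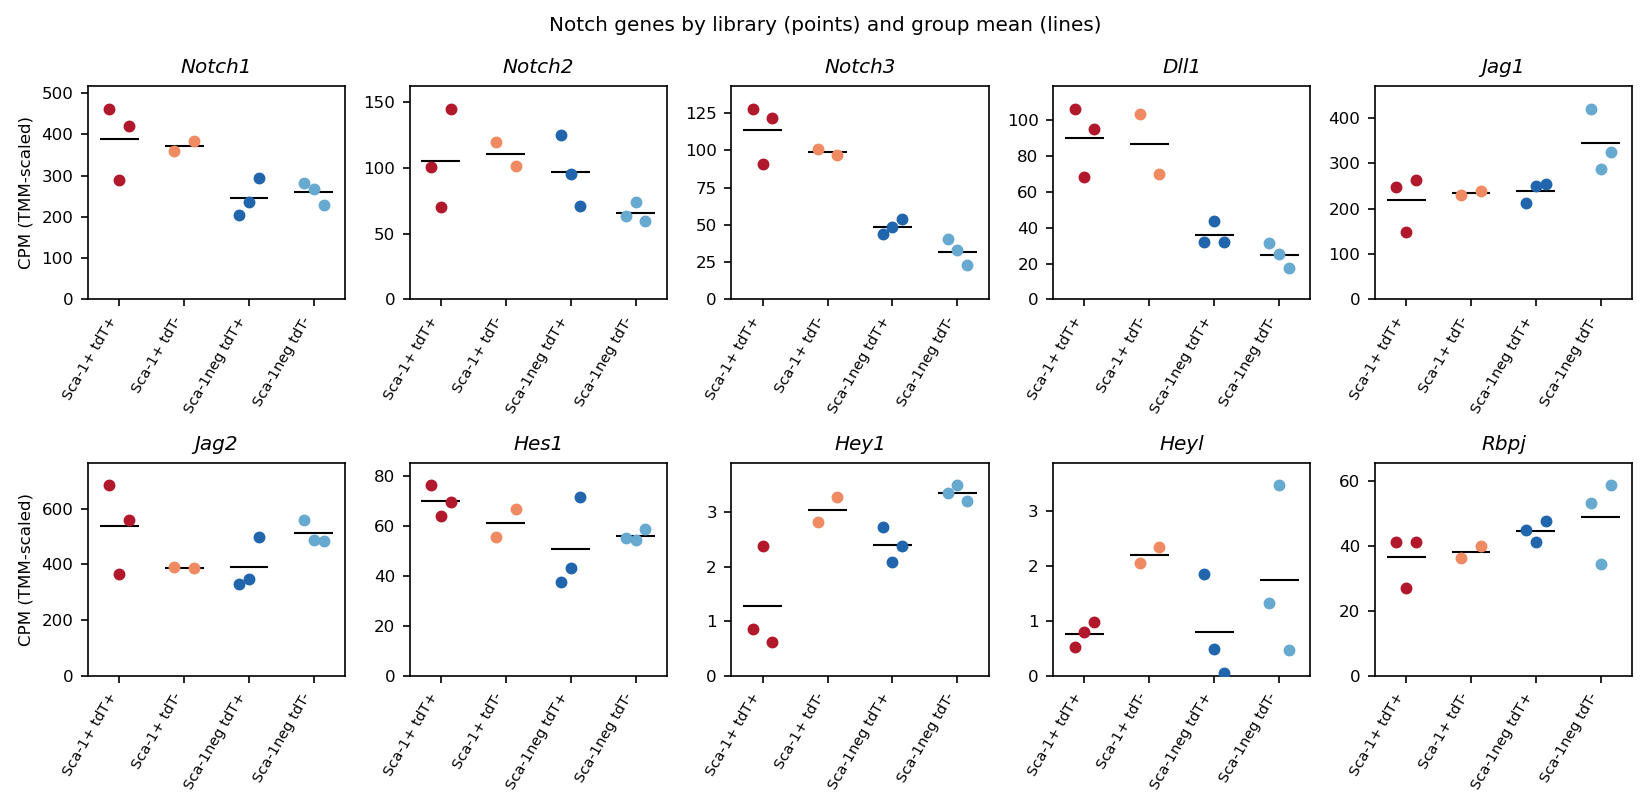
CPM of the 10 Notch genes (vertical axes, TMM-scaled, each panel with its own range from 0) in each of the 11 libraries (points), with the mean of each group (lines). Notch3 and Dll1 are higher in every Sca-1+ library than in any Sca-1neg library, while Jag1, Jag2, Hes1 and Rbpj overlap between the gates.

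Sca-1+ and Sca-1neg cells differed most in the receptor Notch3 and the ligand Dll1. Among tdT+ cells, Notch3 was 2.33-fold and Dll1 2.50-fold higher in the Sca-1+ gate, and among tdT- cells Notch3 was 3.08-fold and Dll1 3.52-fold higher. Notch1 was also called higher among tdT+ cells, at 1.59-fold. None of the 10 genes was called lower in Sca-1+ cells in either comparison. In all, 3 of the 10 genes passed an adjusted p of 0.05 among tdT+ cells (quasi-likelihood test of edgeR, Benjamini-Hochberg adjustment over all genes), where 12.7% of the 20307 genes tested did. Among tdT- cells 2 of the 10 passed, where 5.74% of all genes did. The median log2 fold change of the 10 genes was 0.29 among tdT+ cells and 0.23 among tdT- cells, against -0.07 and -0.13 over all genes tested.

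Notch3 encodes a receptor that is best known from the smooth muscle of blood vessels and is also made by keratinocytes. Its gene lies on the minus strand of chromosome 17 (GRCm38, chr17:32120820-32166852). Notch3 read 128, 91.1 and 122 CPM in Sca-1+ tdT+ cells, against 44.0, 48.3 and 53.8 CPM in Sca-1neg tdT+ cells. The lowest Sca-1+ library was well above the highest Sca-1neg library. The difference was 1.22 ± 0.21 on the log2 scale (SE; 95% interval 0.77 to 1.68; edgeR adjusted p = 0.00363). Among tdT- cells Notch3 read 101 and 97.1 CPM in the Sca-1+ libraries, against 40.4, 32.9 and 22.9 CPM in the Sca-1neg libraries. Here the difference was 1.62 ± 0.23 (95% interval 1.13 to 2.12; edgeR adjusted p = 0.00437).

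Dll1 encodes Delta-like 1, the ligand that in human skin is known from clusters of epidermal stem cells. It lies on the same chromosome and strand (chr17:15367354-15376872). Dll1 read 106, 68.3 and 95.2 CPM in Sca-1+ tdT+ cells, against 32.0, 43.5 and 32.2 CPM in Sca-1neg tdT+ cells. The groups did not overlap, and the difference was 1.32 ± 0.26 on the log2 scale (95% interval 0.76 to 1.89; edgeR adjusted p = 0.00747). Among tdT- cells Dll1 read 104 and 70.2 CPM in the Sca-1+ libraries, against 31.5, 25.2 and 17.5 CPM in the Sca-1neg libraries. The difference was 1.82 ± 0.28 (95% interval 1.201 to 2.43; edgeR adjusted p = 0.00643). Exons of Dll1 overlap those of the opposite-strand transcript A930024N18Rik by 867 bases, and the library kit does not mark strand. That transcript held 4.26 to 5.01 CPM in Sca-1+ tdT+ cells and 2.25 and 2.18 CPM in Sca-1+ tdT- cells. In the Sca-1neg libraries it held 0.716 to 2.54 CPM. Its own count does not bound the reads it shares with Dll1, and their part was not tested.

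These 4 calls were lost when the 29-week libraries were left out, leaving 1 Sca-1+ tdT- library, although the folds kept their direction. Whether age or the smaller number of libraries accounts for the loss was not tested. When the 3 libraries rich in liver transcripts were dropped, leaving 1 Sca-1neg tdT+ library, Notch3 among tdT+ cells had adjusted p = 0.0711, and without Sca-1+ tdT- replicate 1 Dll1 among tdT- cells had adjusted p = 0.0770.

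Notch3 and Dll1 also tracked each other from library to library. Pearson's r of their log2(CPM + 1) values was 0.98 over the 11 libraries and 0.90 over the 6 Sca-1neg libraries alone, a description of libraries that share their gates and not a test. Dll1 was the second most similar gene to Notch3 among 11757 genes with at least 5 CPM on average, after Bhlhe40 (r = 0.98). The genes most similar to Dll1 were Orai1 and Pnpla1, each with r = 0.98. Bhlhe40 encodes a basic helix-loop-helix repressor, Orai1 a plasma membrane calcium channel, and Pnpla1 an enzyme of the skin's acylceramide barrier lipids.

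**Figure D2:**
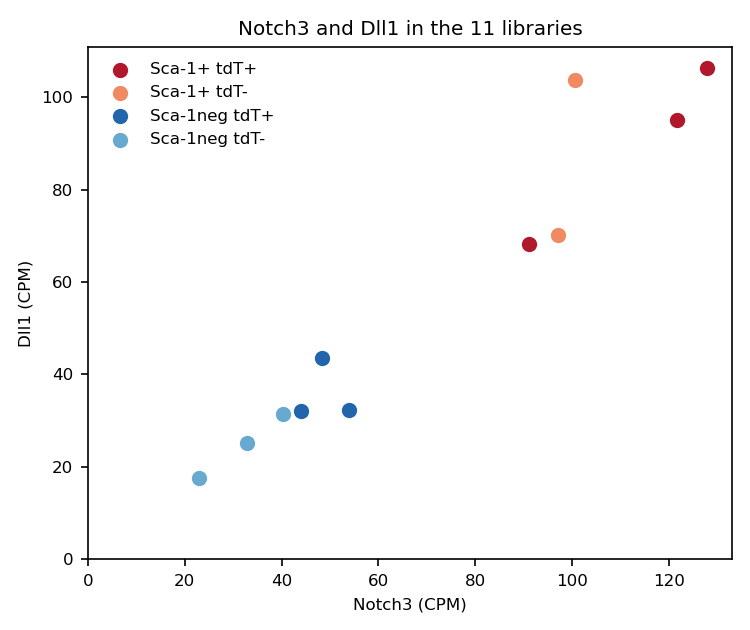
Dll1 (vertical axis, CPM) against Notch3 (horizontal axis, CPM) in each of the 11 libraries, coloured by group. The 5 Sca-1+ libraries lie at 91.1 to 128 CPM of Notch3 and 68.3 to 106 CPM of Dll1, apart from the 6 Sca-1neg libraries, which reach 53.8 and 43.5 CPM.

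The upstream windows of these 2 genes are shown because they moved together. Each is the 250 bases before a RefSeq transcription start (GRCm38.p6), on the minus strand, 5′ to 3′: Notch3 at chr17:32166891-32167140 and Dll1 at chr17:15376933-15377182. 
Notch3: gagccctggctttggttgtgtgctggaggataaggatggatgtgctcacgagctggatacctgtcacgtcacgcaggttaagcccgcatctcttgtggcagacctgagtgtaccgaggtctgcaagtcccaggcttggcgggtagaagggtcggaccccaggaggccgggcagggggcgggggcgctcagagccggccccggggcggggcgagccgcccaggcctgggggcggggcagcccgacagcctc
Dll1: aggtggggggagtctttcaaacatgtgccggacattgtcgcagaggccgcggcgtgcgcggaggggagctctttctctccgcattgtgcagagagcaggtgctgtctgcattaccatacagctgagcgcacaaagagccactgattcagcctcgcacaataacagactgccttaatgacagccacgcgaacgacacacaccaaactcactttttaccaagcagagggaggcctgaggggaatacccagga
The sequences were searched on both strands for TGGGAA, the core of the motif bound by RBPJ, and for CACGTG, an E-box bound by HES and HEY repressors and by BHLHE40. Neither was found, so no base is in capitals. This says only that these letters are not in these windows. TGGGAA occurs in 21.6% and CACGTG in 6.02% of the 32851 windows of this length in the RefSeq table.

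The table held 7 of the 10 genes, with 9 windows. It had no window for the targets Hes1, Hey1 and Heyl, so these were not searched. TGGGAA matched in 2 of the 9 windows, where 21.6% of all windows in the table had a match. Both were windows of Rbpj that overlap each other. This count is not a result about the 10 genes. The 2 matches are shown with 10 bases on either side (GRCm38.p6, plus strand of chromosome 5, the match in capitals); the first lies at chr5:53590187-53590212 and the second, which reads TGGGAA on the opposite strand, at chr5:53590271-53590296. 
Rbpj first match: tgaaaaaggcTGGGAAcccgcggcga
Rbpj second match: cgctcgcattTTCCCAggacccctcc
The matches begin 149 and 65 bases before the upstream start. CACGTG was in none of the 9 windows.

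Notch1, the main receptor of the epidermis and a tumour suppressor there, read 462, 288 and 419 CPM in Sca-1+ tdT+ cells, against 205, 236 and 294 CPM in Sca-1neg tdT+ cells. The groups overlapped, since Sca-1+ replicate 2 lay just below Sca-1neg replicate 3. The difference of 0.67 ± 0.20 on the log2 scale (95% interval 0.23 to 1.11) had an edgeR adjusted p of 0.0497. It kept its direction under all 21 alternatives but its call under 5 of them only. Leaving out any 1 library other than Sca-1neg tdT+ replicate 3 or Sca-1+ tdT+ replicate 2 ended the call, with adjusted p values of 0.0521 to 0.154, and the adjusted p was 0.119 when the library with the low tracer (labelled Sca-1neg tdT+ replicate 2) was left out. Among tdT- cells Notch1 read 359 and 383 CPM in the Sca-1+ libraries, against 283, 267 and 228 CPM in the Sca-1neg libraries. The groups did not overlap, but the difference of 0.52 ± 0.22 (95% interval 0.03 to 1.002) did not pass, with edgeR adjusted p = 0.207.

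Notch2 is the remaining receptor of the 3 and is widely expressed. It read 100.5, 70.0 and 145 CPM in Sca-1+ tdT+ cells, against 125, 95.2 and 70.8 CPM in Sca-1neg tdT+ cells, which overlapped throughout. Among tdT- cells it read 120 and 101 CPM in the Sca-1+ libraries, against 63.4, 73.7 and 59.2 CPM in the Sca-1neg libraries. That difference of 0.76 ± 0.29 (95% interval 0.12 to 1.39) did not pass in the fit of all libraries (edgeR adjusted p = 0.160). It passed when the fit held only the 2 groups compared (adjusted p = 0.0326).

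**Figure D3:**
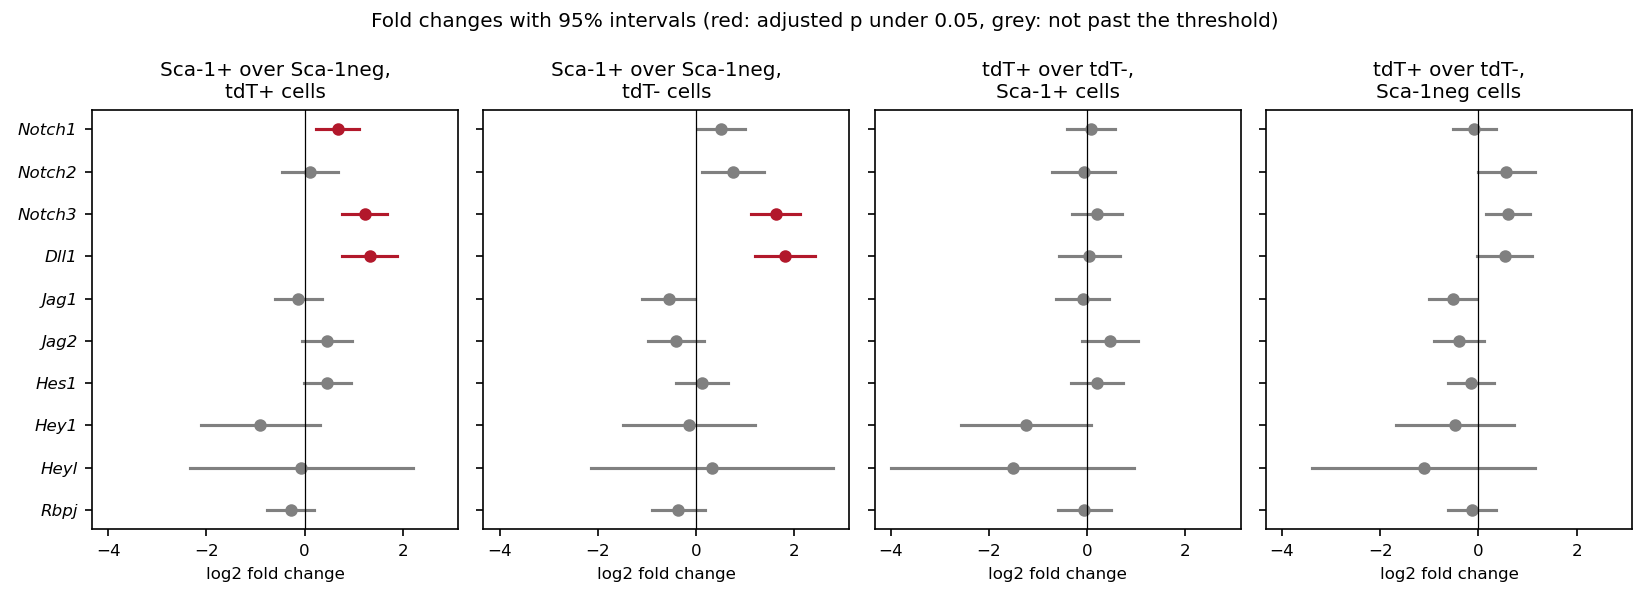
Log2 fold changes (horizontal axes, points) of the 10 Notch genes with 95% intervals (lines) in the 2 comparisons of Sca-1+ over Sca-1neg and the 2 of tdT+ over tdT-; red marks an adjusted p under 0.05. Notch3 and Dll1 pass in both Sca-1 comparisons, Notch1 in 1, and no gene passes in either tdT comparison.

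The Jagged ligands did not share the pattern of Dll1. Jag1, a direct ligand with known roles in the hair cycle, read 248, 148 and 262 CPM in Sca-1+ tdT+ cells, against 214, 250 and 255 CPM in Sca-1neg tdT+ cells. The fold change was -0.13 ± 0.22 (95% interval -0.61 to 0.35; edgeR adjusted p = 0.743). Among tdT- cells Jag1 read 230 and 239 CPM in the Sca-1+ libraries, against 420, 287 and 326 CPM in the Sca-1neg libraries. All Sca-1+ values were lower, but the difference of -0.56 ± 0.25 did not pass (edgeR adjusted p = 0.234).

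Jag2 is the Jagged ligand known from the basal layer. It read 684, 368 and 561 CPM in Sca-1+ tdT+ cells, against 329, 346 and 497 CPM in Sca-1neg tdT+ cells, with a log2 fold change of 0.46 ± 0.23 (edgeR adjusted p = 0.206). Among tdT- cells it read 390 and 387 CPM in the Sca-1+ libraries, against 561, 488 and 486 CPM in the Sca-1neg libraries, with -0.40 ± 0.26 (edgeR adjusted p = 0.423). The fitted direction thus differed between the tracer classes, and neither difference passed.

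The makeup of each family shifted with these changes. Dll1 held 14.7% to 20.5% of the summed CPM per kilobase of the 3 ligands in the 5 Sca-1+ libraries, against 3.20% to 10.03% in the 6 Sca-1neg libraries. Notch3 held 24.8% to 29.6% of the 3 receptors in the Sca-1+ libraries, against 11.7% to 19.7% in the Sca-1neg libraries. Jag2 remained the largest ligand and Notch1 the largest receptor in all 11 libraries. These shares rest on the same counts as the fold changes.

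**Figure D4:**
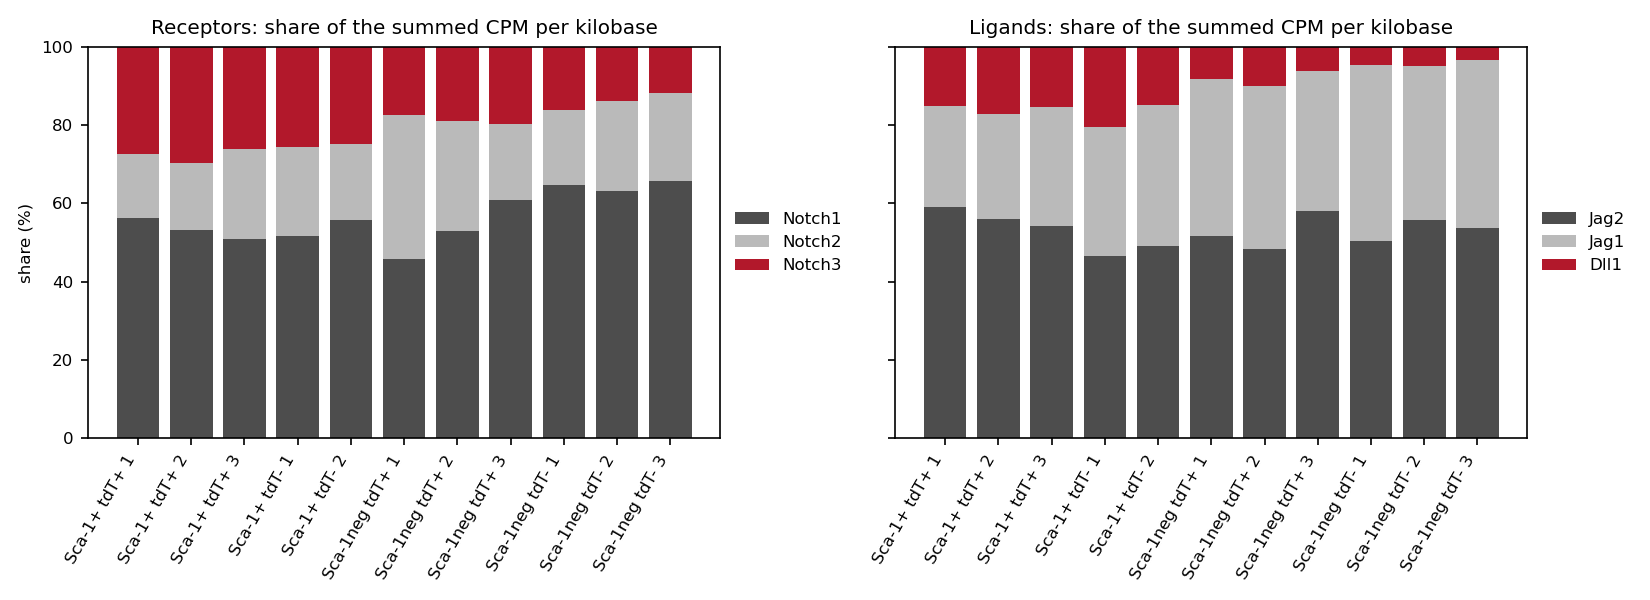
Share (vertical axes, %) of each receptor in the summed CPM per kilobase of Notch1, Notch2 and Notch3, and of each ligand in that of Jag2, Jag1 and Dll1, by library (bars). The Notch3 and Dll1 segments are larger in all 5 Sca-1+ bars than in any of the 6 Sca-1neg bars.

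Of the nuclear members, none passed. Hes1, the main HES target in keratinocytes, read 76.2, 63.9 and 69.4 CPM in Sca-1+ tdT+ cells, against 37.4, 43.1 and 71.4 CPM in Sca-1neg tdT+ cells. Sca-1neg replicate 3 lay within the Sca-1+ range and the other 2 below it. The difference of 0.46 ± 0.22 (95% interval -0.01 to 0.94) had an edgeR adjusted p of 0.175, and without Sca-1neg tdT+ replicate 3 it was 0.79 with an adjusted p of 0.0108. That call rests on the 2 Sca-1neg tdT+ libraries with 2.45% and 1.35% liver transcripts, the latter being the library with the low tracer. Replicate 3 held 0.00965%. Without the libraries rich in liver transcripts, which left replicate 3 alone in its group, the difference changed sign. Among tdT- cells Hes1 read 55.5 and 66.7 CPM in the Sca-1+ libraries, against 55.2, 54.2 and 58.6 CPM in the Sca-1neg libraries (0.13 ± 0.24; edgeR adjusted p = 0.825).

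Rbpj read 41.2, 27.0 and 41.3 CPM in Sca-1+ tdT+ cells, against 44.96, 41.1 and 47.6 CPM in Sca-1neg tdT+ cells. In tdT- cells it read 36.3 and 39.8 CPM in the Sca-1+ libraries, against 53.2, 34.4 and 58.6 CPM in the Sca-1neg libraries. Its fold changes of -0.29 ± 0.22 and -0.36 ± 0.25 did not pass (edgeR adjusted p = 0.416 and 0.457). Hey1 stood between 0.619 and 3.27 CPM in the Sca-1+ libraries, against 2.09 to 3.49 CPM in the Sca-1neg libraries. Heyl stood between 0.533 and 2.35 CPM in the Sca-1+ libraries, against 0.0551 to 3.46 CPM in the Sca-1neg libraries, the lowest being a single read. The intervals of Heyl reached from -2.34 to 2.199 among tdT+ and from -2.13 to 2.79 among tdT- cells, and so include differences of several fold in either direction.

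Counted by overlap instead of by test, 2 of the 10 genes (Notch3 and Dll1) had all Sca-1+ values above all Sca-1neg values among tdT+ cells, where 30.4% of all genes were without overlap in either direction. Among tdT- cells 4 were all higher (Notch1, Notch2, Notch3 and Dll1) and 2 all lower (Jag1 and Jag2), where 46.3% of all genes were without overlap. With so few libraries many genes separate the groups, and these counts alone are not a result about the 10 genes.

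None of the 10 genes passed for the tracer in either gate. In the Sca-1+ gate, 0 of 10 passed in tdT+ against tdT- cells by edgeR and 0 by DESeq2. By edgeR 2.74% of all genes passed there. An unadjusted edgeR p under 0.05 was found for 0 of the 10 and for 14.5% of all genes. In the Sca-1neg gate, 0 of 10 passed by edgeR and 0 by DESeq2, where 0.0640% of all genes passed by edgeR. An unadjusted edgeR p under 0.05 was found for 2 of the 10 and for 8.33% of all genes. In the Sca-1+ gate the fitted log2 fold changes of Notch1, Notch2, Notch3, Dll1, Jag1, Hes1 and Rbpj lay between -0.09 and 0.20, and that of Jag2 was 0.47 ± 0.26 (95% interval -0.10 to 1.04). Their adjusted p values do not show that the groups are alike: the interval of Dll1 in that gate, for example, ran from -0.57 to 0.67.

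The 2 genes with an unadjusted p under 0.05 in the Sca-1neg gate were Notch3 and Jag1. Notch3 read 44.0, 48.3 and 53.8 CPM in tdT+ cells, against 40.4, 32.9 and 22.9 CPM in tdT- cells, a log2 fold change of 0.60 ± 0.20 (edgeR adjusted p = 0.453). Jag1 read 214, 250 and 255 CPM in tdT+ cells, against 420, 287 and 326 CPM in tdT- cells, a log2 fold change of -0.52 ± 0.22 (edgeR adjusted p = 0.577). Counted by overlap, Notch3 and Dll1 (0.54 ± 0.25, not passed) had all tdT+ values above all tdT- values, 2 of the 10 genes, where 5.07% of all genes did. Jag1 and Hey1 (-0.48 ± 0.54, not passed) had all tdT+ values below, again 2 of the 10, where 10.9% of all genes did. These counts too are not a result about the 10 genes. The library labelled Sca-1neg tdT+ replicate 2, which lacks the tracer, is among the tdT+ values of each. Without it the fold of Notch3 stayed positive and that of Jag1 negative, and neither passed.

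In the Sca-1+ gate only the targets Hey1 and Heyl were without overlap, both lower in tdT+ cells, where 33.0% of all genes had no overlap. Hey1 read 0.853, 2.39 and 0.619 CPM in tdT+ cells, against 2.82 and 3.27 CPM in tdT- cells (edgeR adjusted p = 0.384). Heyl read 0.533, 0.795 and 0.981 CPM in tdT+ cells, against 2.06 and 2.35 CPM in tdT- cells (edgeR adjusted p = 0.625). Both genes are known from vessels. The summed CPM of 20 endothelial markers was 105 to 224 in Sca-1+ tdT+ cells, against 7017 and 7608 in Sca-1+ tdT- cells. Only 2 of the 20 passed as lower, where 2.74% of all genes passed in either direction. No endothelial marker was at 0 in these 5 libraries, and the part of such cells in the values of Hey1 and Heyl was not tested.

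The difference of the tracer effect between the gates was tested as an interaction. By edgeR 0 of 10 genes passed and by DESeq2 0, where 0.483% of all genes passed by edgeR. An unadjusted edgeR p under 0.05 was found for 12.2% of all genes and for 1 of the 10. That gene was Jag2, with a log2 difference of 0.86 ± 0.35 (95% interval 0.09 to 1.62; edgeR adjusted p = 0.351). Jag2 was higher in tdT+ than tdT- cells of the Sca-1+ gate by 0.47 and lower in those of the Sca-1neg gate by a fitted -0.39, and neither fold passed.

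Markers of other cell states also differed between the Sca-1 gates, not all of them in both tracer classes. Their counts stand beside 12.7% of all genes passing among tdT+ cells and 5.74% among tdT- cells, in either direction. The summed CPM of 11 markers of differentiating epidermis was 4539 to 12936 in Sca-1+ cells, against 1719 to 5596 in Sca-1neg cells, and 3 of the 11 passed as higher in each tracer class. In the Sca-1+ groups most of the mean sum was Krt10 and Krt1. The means of Sbsn, Lor, Flg and Klf4 were lower in Sca-1+ than Sca-1neg cells among tdT+ cells. Among tdT- cells only that of Klf4 was lower. None of the list passed as lower. The sum of 8 bulge markers was 3338 to 5429 in Sca-1+ cells, against 8115 to 15056 in Sca-1neg cells, with 8 of 8 lower among tdT+ and 4 of 8 lower among tdT- cells. Of 10 T cell markers 9 passed as higher among tdT+ and 8 among tdT- cells, with sums of 53.3 to 749 in Sca-1+ cells, against 5.32 to 46.5 in Sca-1neg cells. Basal keratinocyte markers, 6 genes, summed to 31815 to 38469 CPM in Sca-1+ tdT+ cells, against 16919 to 22575 CPM in Sca-1neg tdT+ cells, and 3 of 6 passed as higher. Among tdT- cells the sums overlapped, at 23069 and 26064 CPM in the Sca-1+ libraries, against 24869 to 25461 CPM in the Sca-1neg libraries, and 1 passed as higher. Langerhans cell markers, 7 genes, summed to 298 to 855 CPM in Sca-1+ cells, against 132 to 439 CPM in Sca-1neg cells, with 1 of 7 lower among tdT+ and 4 of 7 higher among tdT- cells. The part of these cells in the levels of Notch3, Dll1 and Notch1 was not tested.

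Few vascular markers passed between the gates. Of all genes tested, 12.7% passed among tdT+ and 5.74% among tdT- cells. With lists this short, the counts below are not a result about vascular cells or melanocytes. Of 20 endothelial markers 2 passed as higher in Sca-1+ cells among tdT- cells, where the sum of all 20 was 7017 and 7608 CPM for the Sca-1+ libraries, against 79.9 to 289 CPM for the Sca-1neg ones. Among tdT+ cells 1 of the 20 passed as lower, with sums of 105 to 224 CPM in Sca-1+ cells, against 25.5 to 1664 CPM in Sca-1neg cells, the highest being the library with the low tracer. No endothelial marker was at 0 in a Sca-1+ library, and at most 1 in a Sca-1neg library. The sum of 10 mural cell markers was 54.7 to 219 CPM in Sca-1+ cells, against 269 to 448 CPM in Sca-1neg cells, and most of it was Cspg4, the 1 of the 10 that passed as lower in each tracer class. Cspg4 averaged 53.9 CPM in Sca-1+ tdT+ cells, against 308 CPM in Sca-1neg tdT+ cells, and 148 CPM in Sca-1+ tdT- cells, against 406 CPM in Sca-1neg tdT- cells. Acta2 and Tagln, smooth muscle genes, averaged 11.2 and 2.92 CPM in Sca-1+ tdT- cells, against 7.78 and 0.940 CPM in Sca-1neg tdT- cells. These 2 did not pass, and their direction was opposite to that of the summed list. Among tdT- cells all 10 markers summed to 111 and 219 CPM for the Sca-1+ libraries, against 410 to 448 CPM for the Sca-1neg ones. The rest of the list, without Cspg4, Acta2 and Tagln, also averaged less in total in Sca-1+ tdT- cells. As many as 4 of the 10 mural markers were at 0 in a Sca-1+ library, and as many as 2 in a Sca-1neg library. Melanocyte markers, 8 genes, summed to 17.7 to 63.8 CPM in Sca-1+ cells, against 104 to 166 CPM in Sca-1neg cells, with 2 of 8 lower among tdT+ and 1 among tdT- cells. The part of vascular cells and melanocytes in the levels of Notch3, Dll1 and Notch1 was not tested.

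Other genes of the pathway were followed with a list of 49, of which 44 passed the low-count filter. Among tdT+ cells 7 were higher and 4 lower in the Sca-1+ gate. Among tdT- cells 1 was higher and 1 lower. In tdT+ against tdT- cells 1 was higher and 1 lower in the Sca-1+ gate, where 2.74% of all genes passed. In the Sca-1neg gate 0 passed by edgeR, and no more than 1 passed under any alternative, DESeq2 included. An unadjusted edgeR p under 0.05 was found there for 4 of the 44 and for 8.33% of all genes. Read against 12.7% and 5.74% of all genes in the Sca-1 comparisons, 11 of 44 and 2 of 44 are counts of a list and not a result particular to it. The median log2 fold change over the 44 genes was 0.02 among tdT+ and 0.12 among tdT- cells.

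Among genes that act on receptor and ligand before cleavage, Lfng encodes the Fringe glycosyltransferase that tunes which ligands a Notch receptor answers to. It averaged 26.2 ± 4.5 CPM in Sca-1+ tdT+ cells and 61.0 ± 19.8 CPM in Sca-1neg tdT+ cells (SD, n = 3 each), a log2 fold change of -1.22 ± 0.23 (edgeR adjusted p = 0.00632). Neurl1b, a ubiquitin ligase that acts on ligands, was higher by 0.75 ± 0.20 (edgeR adjusted p = 0.0300). The 2 most abundant genes of this role, Mib1 and Mib2, also ubiquitin ligases of ligands, did not pass. In the remaining ligand and receptor genes nothing passed: Dlk2, a ligand-like protein, averaged 27.9 CPM over all libraries, Dll4 2.90 CPM and Notch4 2.38 CPM. Dll4 and Notch4, both known from endothelium, had their highest group mean in Sca-1+ tdT- cells, at 7.60 and 4.83 CPM.

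The proteases that cut the receptor outside the cell were both higher in Sca-1+ tdT+ cells. Adam10 read 127 to 148 CPM in Sca-1+ tdT+ cells, against 95.3 to 112 CPM in Sca-1neg tdT+ cells (0.46 ± 0.13; edgeR adjusted p = 0.0461), a call kept under 3 of 21 alternatives. Among tdT- cells it read 203 and 211 CPM in the Sca-1+ libraries, against 88.7 to 112 CPM in the Sca-1neg libraries (1.06 ± 0.15; edgeR adjusted p = 0.00437), a call kept under 19 of 21. Adam17 read 95.02 to 106 CPM in Sca-1+ tdT+ cells, against 67.8 to 71.9 CPM in Sca-1neg tdT+ cells (0.50 ± 0.12; edgeR adjusted p = 0.0193). Ncstn, an abundant gamma-secretase subunit, did not pass.

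In the nucleus and in turnover, members moved in both directions. The co-activator gene Maml3 (0.69 ± 0.20; edgeR adjusted p = 0.0481) was higher in Sca-1+ tdT+ than Sca-1neg tdT+ cells. The co-activator genes Maml2 (-0.84 ± 0.24; edgeR adjusted p = 0.0440) and Kat2b (-0.80 ± 0.18; edgeR adjusted p = 0.0160) were lower. Fbxw7, whose product marks the cut receptor for destruction, averaged 73.2 ± 15.7 CPM in Sca-1+ tdT+ cells and 36.5 ± 4.2 CPM in Sca-1neg tdT+ cells (1.01 ± 0.17; edgeR adjusted p = 0.00358). Of these, Lfng, Kat2b and Fbxw7 kept their calls under 20 of 21 alternatives, Adam17 under 14, Neurl1b under 13, Maml2 under 8 and Maml3 under 7.

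The list holds 5 Deltex genes, relatives of the Drosophila regulator of Notch trafficking. Of these Dtx1, Dtx3l and Dtx4 passed in no comparison, although Dtx4 had a log2 fold change of 1.62 ± 0.42 in tdT+ against tdT- cells of the Sca-1neg gate (edgeR adjusted p = 0.283). Dtx2 and Dtx3 passed, in opposite directions. Dtx2 read 102 to 120 CPM in Sca-1+ tdT+ cells, 63.0 and 69.9 CPM in Sca-1+ tdT- cells and 38.0 to 49.6 CPM in the 6 Sca-1neg libraries. Dtx3 read 48.2 to 56.1 CPM in Sca-1+ tdT+ cells, 75.6 and 102 CPM in Sca-1+ tdT- cells and 96.9 to 187 CPM in the Sca-1neg libraries. Among tdT+ cells the log2 fold change of Dtx2 was 1.30 ± 0.15 (edgeR adjusted p = 0.000435) and that of Dtx3 -1.18 ± 0.17 (edgeR adjusted p = 0.00149), and both calls held under all 21 alternatives. They were also the 2 genes of the list that passed for the tracer in the Sca-1+ gate, where tdT+ against tdT- cells gave 0.74 ± 0.17 for Dtx2 (edgeR adjusted p = 0.0431) and -0.81 ± 0.18 for Dtx3 (edgeR adjusted p = 0.0438). Those 2 calls were kept under 6 and 9 of 21 alternatives. Dtx3 also passed as lower among tdT- cells (-0.89 ± 0.19; edgeR adjusted p = 0.0223).

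**Figure D5:**
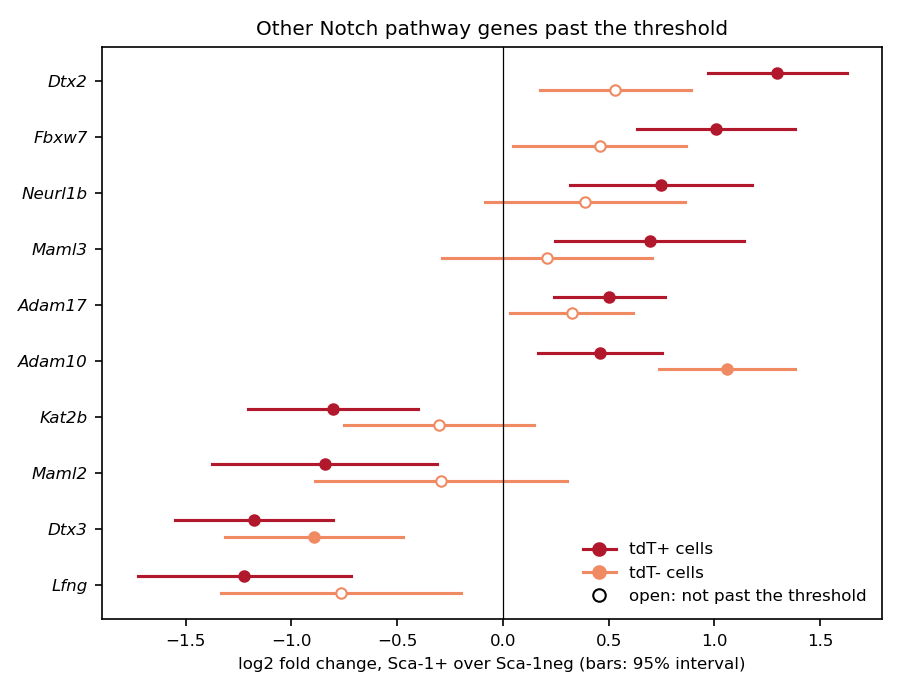
Log2 fold change of Sca-1+ over Sca-1neg cells (horizontal axis, points; lines are 95% intervals) for 10 of the other pathway genes that passed in any comparison, in tdT+ cells (dark red) and tdT- cells (orange); filled points passed the threshold. Dtx2 at 1.30 and Lfng at -1.22 are the extremes among tdT+ cells.

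Beyond Notch3 and Dll1, each of the 10 genes had other nearest neighbours over the 11 libraries by Pearson's r of log2(CPM + 1). Notch1 was most like Map4 (0.96), Notch2 like Scnn1a (0.95) and Ern1 (0.91), Jag1 like Metap1d (0.93) and Zfp821 (0.93), and Jag2 like Pcid2 (0.93) and Fgfr3 (0.93). Hes1 was most like Ube2z (0.95) and Mtx1 (0.95) and Rbpj like Zfp422 (0.92) and Axl (0.92). The low counts of Hey1 and Heyl make their neighbours, Cdc42ep2 and Rhoc for Hey1 and Surf4 and Pdlim4 for Heyl, less certain. These values describe libraries that share gates and pools, and the highest of 11757 is high by selection.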

How the data were processed

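The authors deposited raw gene counts, 1 file per library, for 55536 Ensembl genes and 1 further row, read as the tdT tracer and kept out of the tests. Per the labels' protocols, cells were released with thermolysin, RNA was taken with Trizol and libraries were made with the TruSeq RNA v2 kit. Per the submitters' processing notes, the tools were STAR, featureCounts, FastQC, bcl2fastq 2.20.0.422 and DESeq2 1.18.1, and the build mm10. For strandedness, multi-mapping reads and the annotation release, the settings are not given in the sources used. Reads shared with overlapping transcripts therefore cannot be told apart. Such transcripts lie on the opposite strand for Notch1, Notch3 and Dll1 and on the same strand for Notch2. They held few counts of their own, which do not bound the shared reads.

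Symbols, coordinates and exon lengths came from GENCODE M21 by Ensembl identifier, and upstream windows from RefSeq (GRCm38.p6). No library copied another: the chi-square between 2 libraries was at least 45.5 per degree of freedom over the 55 pairs. In R 4.3.3, edgeR 4.0.16 was run on the deposited counts with filterByExpr by group, which left 20307 genes, TMM scaling and a robust quasi-likelihood fit of 4 group means to all 11 libraries, leaving 7 residual degrees of freedom. The threshold is an adjusted p of 0.05 over all genes tested. SE was approximated from the F statistic (size of the log2 fold change over the root of F), and 95% intervals use the moderated degrees of freedom. CPM are TMM-scaled, except for the tracer, given as CPM of the total count of its library. The fit was also run on simulated data with known changes. Those libraries were drawn independently from common means, without liver-rich or low-tracer libraries or shared mice, so that run does not bear on these features. The alternatives were the Wald test of DESeq2 1.42.0, scaling by DESeq2 size factors or by library size, other low-count filters, a term for age or for replicate number, only 32-week libraries, only the groups compared, the libraries without liver transcripts, and leaving out each library in turn.

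The 10 genes, the list of 49, the marker lists and the tests were chosen with earlier results of these data known. Named besides the 10 are genes of the list past the threshold in a comparison, the 2 most abundant per role, the 2 genes most similar to each of the 10, and the sort markers; single genes that this rule also takes are not reported here. The replicate numbers were not used as pairs.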

Additional observations from a re-analysis of the deposited data

How the results depend on the processing

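Across the 21 alternatives (20 for the interaction), the 50 fold changes of the 10 genes gave 1030 values, of which 955 kept direction and side of the threshold. No called fold changed sign, and no fold that changed sign passed the threshold; the lowest adjusted p among the 50 sign changes was 0.133. The cause of each change below was not tested. The 32-week libraries include a single Sca-1+ tdT- library, which has to borrow its spread from the other groups. The count of Notch genes past the threshold in Sca-1+ against Sca-1neg cells was 0 (tdT+) and 0 (tdT-) in the 32-week libraries alone, and 1 (tdT+) without the 3 libraries with liver transcripts, where the single Sca-1neg tdT+ library left has to borrow its spread from the other groups. Leaving out each library gave 1 to 2 among tdT- cells and 2 to 4 among tdT+ cells. Notch1 passed among tdT- cells by DESeq2 (adjusted p = 0.0455).

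Counts over all genes moved more. For tdT+ against tdT- cells in the Sca-1neg gate, 13 genes passed in the main analysis, 400 with DESeq2, 81 with no low-count filter, 8 with age as a factor, 38 without the liver libraries, 0 in the 32-week libraries and 0 with only the groups compared. In the Sca-1+ gate it was 556, against 1449 with DESeq2, 64 in the 32-week libraries, 1286 without the liver libraries and 957 with only the groups compared. For Sca-1+ against Sca-1neg among tdT+ cells it was 2572, against 4652, 345 and 1584 with DESeq2, the 32-week libraries and only the groups compared. Among tdT- cells it was 1166, against 2898, 9 and 2003 with these, and 2073 without the liver libraries. For the interaction it was 98, against 836 with DESeq2, 156 with DESeq2 size factors, 234 with no filter, 172 with the 10 CPM filter, 220 without the liver libraries and 0 in the 32-week libraries. Leaving out each library gave 0 to 14, 145 to 791, 1591 to 3040, 116 to 1665 and 26 to 347 genes in these 5 comparisons in the order given; the lowest counts came without Sca-1neg tdT- replicate 3, Sca-1+ tdT- replicate 2, Sca-1neg tdT+ replicate 1, Sca-1+ tdT- replicate 1 and Sca-1+ tdT- replicate 2. With DESeq2 size factors the Sca-1neg tracer split was 11 higher and 0 lower (11 and 2 with TMM), and the median of all genes in the interaction moved by -0.12. The list of 49 gave 0 to 1, 0 to 9, 2 to 16, 0 to 11 and 0 to 2 calls in the same 5 comparisons.

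Folds that changed sign, none of them past the threshold, were these. For the tracer in the Sca-1neg gate, Notch1 was 1.3e-05 with DESeq2, 8.6e-05 with DESeq2 size factors, 0.089 in the 32-week libraries and 0.20 without the liver libraries, and Hes1 was 0.010 and 0.33 in the last pair; leaving out each library gave -0.24 to 0.030 for Notch1, -0.48 to 0.0296 for Hes1 and -0.32 to 0.0256 for Rbpj. For the tracer in the Sca-1+ gate, Dll1 was -0.0135 with no filter and -0.0192 without the liver libraries, and in the 32-week libraries Notch1 was -0.12, Notch2 0.074 and Hes1 -0.0087; leaving out each library gave -0.069 to 0.19 for Notch1, -0.37 to 0.091 for Notch2, -0.25 to 0.35 for Dll1, -0.24 to 0.067 for Jag1 and -0.16 to 0.059 for Rbpj. For Sca-1+ against Sca-1neg among tdT+ cells, Heyl was 0.15 with age as a factor, 0.038 with library size alone, 1.70 in the 32-week libraries and 3.68 without the liver libraries, and Hes1 was -0.049 without the liver libraries; leaving out each library gave -0.18 to 0.34 for Notch2, -0.27 to 0.066 for Jag1 and -0.61 to 1.49 for Heyl. Among tdT- cells Heyl ran from -0.12 to 1.30 in this way. For the interaction, Rbpj was -0.055 with DESeq2, -0.056 with its size factors, -0.046 with the 10 CPM filter and -0.15 in the 32-week libraries, where Notch1 was -0.21, Hes1 -0.0189 and Heyl 1.45; without the liver libraries Notch1 was -0.20, Hes1 -0.20 and Heyl 2.34, and leaving out each library gave -1.37 to 1.16 for Heyl and -0.085 to 0.26 for Rbpj.

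Whether replicate numbers pair the samples is not settled by these data. Same-numbered libraries of tdT+ and tdT- cells in the Sca-1neg gate deviated from their group means with correlations of -0.68, 0.52 and 0.83. Those of the 2 gates among tdT+ cells gave -0.13, 0.0038 and -0.04, and those of the remaining pairs 0.22 to 0.34. In groups this small the deviations of libraries from their mean depend on each other. With the number as a replicate block 2 Notch genes passed among tdT+ and 2 among tdT- cells, Notch1 having adjusted p = 0.0671, and Heyl among tdT+ cells was 0.61, its interaction 0.52 and that of Rbpj -0.10. The lowest library counts of Hey1 and Heyl were 12 and 1, which limits the precision of these 2 genes.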
